A study of Microcebus murinus with 18 samples.

Results

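Temporal cortex from 2 AD-like grey mouse lemurs was compared with temporal cortex from 10 old grey mouse lemurs. The grey mouse lemur (Microcebus murinus) is a small primate, and 12 of the 18 arrays of the series, chosen by their labels alone, make up this comparison. The 6 arrays of young adult animals were not used. Each animal's RNA was put on a single array of the human genome design U133 Plus 2.0. The AD-like animals, F1 and F2, were old females in whose brains the study had found β-amyloid plaques and atrophy of the cortex. The 7 old females and 3 old males were described as healthy. The study gave the AD-like animals a higher mean age than the old animals, with overlapping spreads. Age and pathology therefore cannot be told apart here. According to the methods all 12 animals had been born in captivity in 1 colony. RNA came from the right hemisphere, whereas the plaques had been sought in the left one. The plaques arise without any transgene in some old animals of this species. Because the AD-like group has only 2 animals, both females, each is given singly beside the range of the old animals, and the tests assume that AD-like animals vary among themselves as the old ones do.

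In Alzheimer's disease, fragments of the amyloid precursor protein gather in plaques, the microtubule protein tau is phosphorylated and aggregates, and synapses are lost. The temporal cortex, which serves memory and recognition, is among the regions hit early in patients. Each probe set on the array is a group of short probes made for a human transcript, so a signal depends both on the amount of RNA and on how well the lemur sequence matches the probes, and comparisons are therefore made between animals within a probe set.

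Of 12 measured markers of cortical excitatory neurons, 9 lay within the old range in F2 and 11 in F1. SLC17A7, the vesicular transporter that fills the synaptic vesicles of cortical excitatory neurons, gave signals of 1749 in F1 and 1420 in F2, and 735, 1945 and 2509 as the lowest, median and highest of the old animals. TBR1, a transcription factor of the deep cortical layers, gave 647 and 425 against 216, 462 and 631. The exceptions were TBR1 in F1, just above the old range, and 3 markers in F2 that lay below it. These were SNAP25, CUX2, with 9.41 against at least 23.9 in the old animals, and NEUROD2, with 285 against at least 307. The astrocyte markers S100B and GJB6 stayed under the median signal of the array on all 12 arrays. Only 2 of 23 genes of microglia, complement and antigen presentation passed the filter on low signals, so these arrays show little of the immune cells that surround plaques.

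Among the arrays, AD-like F2 and old M1 and M2 carried no poly-A control RNA, with mean control signals of 14.4 to 23.1 against at least 161 on the other 9. These arrays were treated as a batch. The batch holds AD-like F2 with 2 old males, and the 9 others hold AD-like F1 with 8 old animals, so each AD-like animal can also be compared with old animals within its own set of arrays. The sum of the signals of 13 markers of excitatory neurons was 45373 in F1, inside the old range of 31497 to 58516, and 22418 in F2, below all old animals. SNAP25, with 8268 in F2 against an old mean of 27258, made up most of that gap, and the sum over the other 11 markers kept was 18258 and 14142 against 11508 to 22953, within the old range in both. The sum over 14 astrocyte markers was 25203 and 17213 against 12557 to 48865, and that over 17 oligodendrocyte and myelin markers was 11288 and 6642 against 4059 to 12512. Whether the neuronal sum of F2 has a part in the differences below was not tested. In pieces of tissue such as these, fewer cells of a type and less RNA per cell cannot be told apart.

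A probe set was kept when its third-highest signal over the 12 arrays was at least 150, and 12427 of 54613 probe sets were kept. They stood for 7575 genes. Signals were compared as log2(signal + 16), so differences below are on this scale, which understates the change of dim genes. AD-like F2 had the lowest of the 12 signals for 14.1% of the probe sets kept and the highest for 8.93%. AD-like F1 had the lowest for 6.89% and the highest for 5.43%. Old M3 and old M2 were lowest for 13.2% and 12.6%, so F2 was not alone in standing low. With each array scaled to the same trimmed mean, F2, old M3 and old M2 had the highest median signals, 53, 49.9 and 50.5. On the other arrays the medians were 30.7 to 47.9. Whether this has a part in their low signals was not tested. The log2 ratio of the 3 to the 5 prime control signal of beta-actin was -2.5 for AD-like F1 and -0.46 for AD-like F2. Old M1 and M2 had -0.89 and -0.76, and the old animals ran from -3.27 to -0.4. For GAPDH the ratio was 0.32 for F1 and 0.61 for F2, against -0.1 to 1.56. What part these ratios have in the low signals of F2 was not tested.

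**Figure D1:**
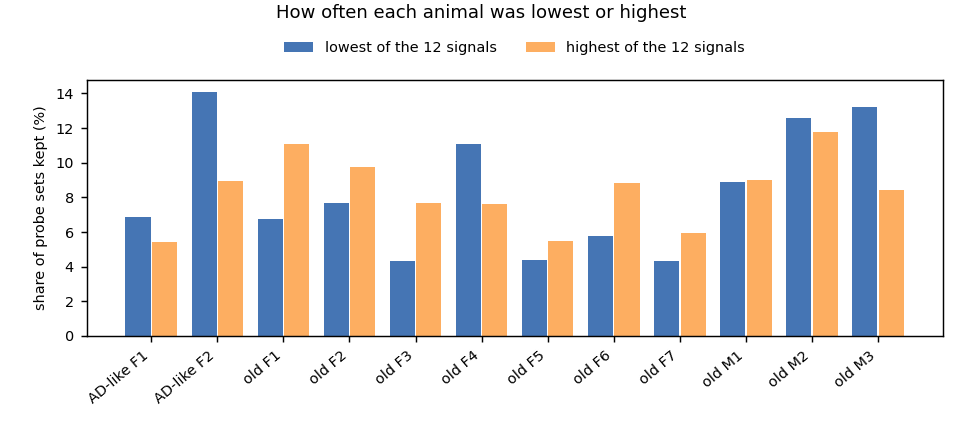
Share of the 12427 probe sets kept (vertical axis, percent) in which each of the 12 animals (horizontal axis) had the lowest (blue bars) or the highest signal (orange bars). AD-like F2 is lowest for 14.1%, close to old M3 and old M2, while AD-like F1 stands among the old animals with few extreme signals.

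More probe sets were lower than higher in the AD-like group where calls were taken at a limma p under 0.05 before adjustment. There were 497 lower, which is 4.00% of those tested, and 119 higher, which is 0.958%. Lower ones thus made up 80.7% of these calls. This split turned with the filter and the scale. Without any filter on low signals it was 31.2%, with 1055 lower and 2328 higher, and in the methods' t-test on linear signals it was 47.6%. Without AD-like F2 it was 91.2%, with 447 lower and 43 higher, and without AD-like F1 there were 955 lower and 157 higher. After Benjamini-Hochberg adjustment 1 probe set passed in limma, which is 0.00805%, and the next smallest adjusted p was 0.136. Every gene named below other than GADD45G therefore missed the adjusted threshold. The median difference over all probe sets kept was -0.04, with 0.04 for F1 and -0.08 for F2.

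Counted without a test, both AD-like signals lay below all 10 old signals in 212 probe sets, or 1.71%, and above all of them in 152, or 1.22%. In a further 219 probe sets 1 AD-like animal lay above all old animals and the other below them. Singly, F1 lay below the old range in 972 and above it in 769 probe sets, and F2 below it in 1848 and above it in 1168. Some of the pairs outside the range are dim, by a different measure on each side. In 33 of the 212 both AD-like signals were under the median of their array, and in 74 of the 152 all old signals were under 200. The filter keeps a probe set with both AD-like signals on top when a single old signal reaches 150, but asks for 3 such old signals when both AD-like signals are lowest, so the counts below and above were not compared.

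Taken over all probe sets, the differences of the 2 AD-like animals were nearly unrelated. The difference of F1 from the 8 old animals on arrays with the poly-A control and that of F2 from the 2 old animals on arrays without it share no array. Over the 12427 probe sets these 2 differences had a Pearson correlation of 0.02 and a Spearman correlation of 0.02, and they had the same direction in 50.1% of the probe sets. Over 7575 genes, with 1 probe set each, the correlations were 0.04 and 0.03. Genes are not independent replicates, and the comparison of F2 rests on only 2 old animals, both males. The 25 genes that follow first were chosen for having both AD-like animals on the same side of the old range, which does not hold for the genes named later from lists or for their role.

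GADD45G was lower in the AD-like animals and was the gene that passed adjustment. It belongs to a family of stress-induced proteins that halt cell growth and answer DNA damage. Its signal was 21.6 in F1 and 16.5 in F2, and 104, 208 and 343 as the lowest, median and highest of the old animals. Both AD-like signals were far below every old signal and under the medians of their arrays, 44.3 and 53. The difference was -2.63 (SE 0.35, limma, adjusted p = 0.024). It was -2.66 within the arrays that carried the poly-A control and -2.18 within those that did not. Neither value passed adjustment on the fewer arrays (limma, adjusted p = 0.0625 and 0.367), nor did -1.87 with an offset of 50 (adjusted p = 0.167). The call was also lost without AD-like F1, without AD-like F2 and without any 1 of old F1, F2, F3, F5, F6 and M3, with adjusted p from 0.0541 to 0.118 and differences of about the same size.

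The relatives of GADD45G did not share its pattern. GADD45A was 2511 in F1, higher than the old median, and 386 in F2, below all old animals, against 651, 1754 and 2841. GADD45B was 309 and 87.1 against 37.5, 242 and 579. For both genes the AD-like animals stood on opposite sides of the old median. Of 16 measured genes of the GADD45 family and of DNA damage or growth arrest, GADD45G alone was lower and none was higher by limma at an unadjusted p under 0.05.

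After GADD45G, the 14 genes named as lowest by their p value are involved in many unrelated tasks. Serotonin receptor 4, HTR4, which acts through cyclic AMP, gave 59.6 and 41.9 against 148, 354 and 518 in the old animals, a difference of -2.33 (SE 0.43). BICD1, an adaptor that ties cargo to the motor dynein, gave 21.4 and 46.3 against 119, 197 and 287. DDX11, a DNA helicase, gave 94.2 and 40.2 against 166, 233 and 294. In these 3 genes every AD-like signal lay clear of the old range. CCND1, the cyclin that drives cells into the cycle, gave 18.6 and 19.9 against 53.4, 123 and 195. EXOSC5, a subunit of the RNA exosome, gave 65.7 and 25.8 against 101, 239 and 359. ENO3, the enolase best known from muscle, gave 14.4 and 15.3 against 63.5, 97.3 and 184. In 11 of the 15 genes, among them BICD1, CCND1 and ENO3, both AD-like signals were under the medians of their arrays, so the sizes of their differences depend on the offset.

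The other 8 genes of this group were INAFM1, the zinc finger gene ZNF655, ZER1, a substrate receptor of a ubiquitin ligase, SFXN2, a sideroflexin of mitochondria, HYI, RASGEF1A, an exchange factor for Ras proteins, SPAG4 and COPA, a coat protein of vesicles between Golgi and endoplasmic reticulum. Their differences ran from -1.65 for COPA to -2.76 for ZER1. SPAG4 differed most between both animals, with 18.2 in F1 and 98.1 in F2 against an old range of 139 to 272. ZNF655 was alike in both, with 28.8 and 28.8 against 84.8 to 403. Within the arrays with and without the poly-A control, ZNF655 had differences of -2.67 and -2.11, INAFM1 of -1.98 and -1.72, and SPAG4 of -2.64 and -0.69. Against the 7 old females alone, ZNF655, EXOSC5, HYI and ZER1 also passed adjustment (limma, adjusted p = 0.0302, 0.0302, 0.0393 and 0.0398). GADD45G did so too (limma, adjusted p = 0.00844). All 7 old females were on arrays with the poly-A control, whereas AD-like F2 was not. This comparison thus holds no old animal from the set of arrays of F2, and the part of that set in these calls was not tested.

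**Figure D2:**
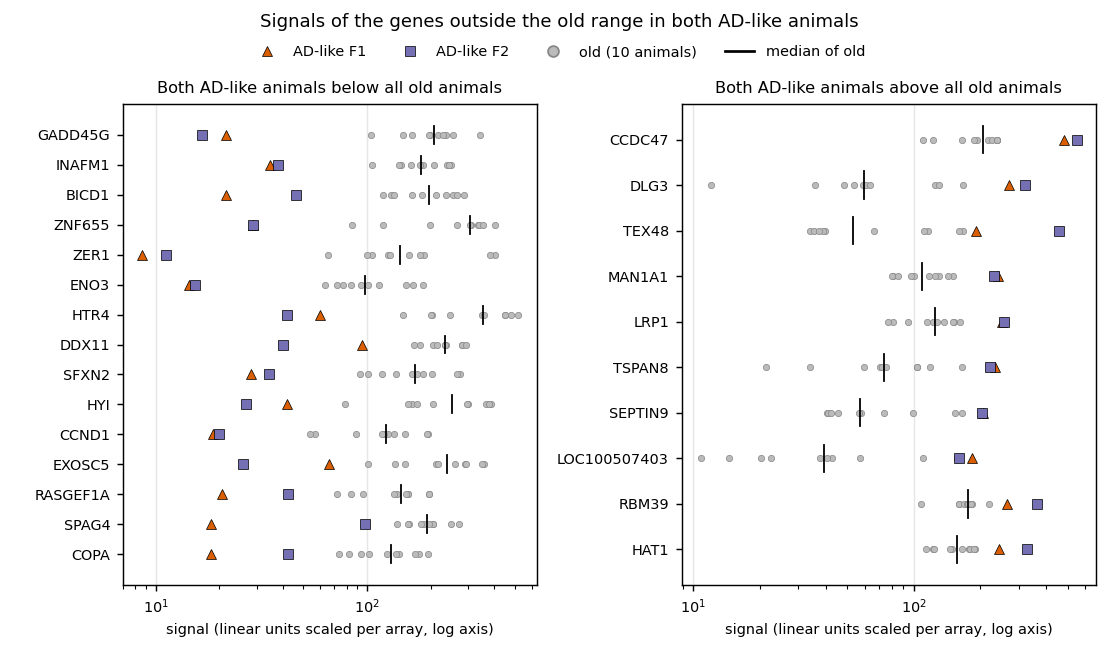
Signals (horizontal log axis, linear units scaled per array) of the 15 lower and the 10 higher genes named for having both AD-like animals outside the old range, with old animals as grey circles, their median as a black line, AD-like F1 as a triangle and AD-like F2 as a square. On the left both coloured symbols lie below every grey circle, for GADD45G at 21.6 and 16.5 against at least 104, and on the right above every grey circle, for CCDC47 at 480 and 551 against at most 240.

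Among the genes above the old range, CCDC47 had the smallest p. It encodes a protein of the endoplasmic reticulum that binds calcium and helps insert membrane proteins. Its signal was 480 in F1 and 551 in F2 against 110, 206 and 240, so that both AD-like animals lay clear above the highest old animal. The difference was 1.37 (SE 0.33, unadjusted p = 0.000749 in limma), and it was 1.30 within the arrays with the poly-A control and 1.40 within those without. LRP1, a large receptor that takes up apolipoprotein E and amyloid peptide, gave 251 and 258 against 76.2, 125 and 162. HAT1, an acetyltransferase that acts on newly made histones, gave 245 and 327 against 114, 158 and 190, and RBM39, a splicing factor, gave 266 and 364 against 108, 176 and 220.

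For DLG3, a scaffold of glutamate receptors at synapses, the signals were 271 and 320 against 12.1, 59.9 and 167. MAN1A1, a mannosidase of the Golgi, gave 242 and 231 against 80.1, 109 and 151. The tetraspanin TSPAN8, the cytoskeletal protein SEPTIN9, TEX48 and LOC100507403 also lay above the old range, with differences of 1.44, 1.38, 1.89 and 1.74. No old signal of these 4 genes, of DLG3 or of MAN1A1 was above 167, so on these probes they were dim in every old animal.

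Most of these genes were measured only once in the probe sets kept. Of the 15 lower genes, 5 had other probe sets that were kept, 7 in all, of which 5 were also lower and 0 had an unadjusted limma p under 0.05. Of the 10 higher genes, 4 had 6 other probe sets, of which 2 were also higher and again 0 had an unadjusted p under 0.05. The other probe set of CCDC47 gave 200 and 138 against 116, 183 and 399, which places both AD-like animals within the old range. The other probe set of LRP1 gave 552 in F1 and 137 in F2 against 64.6, 309 and 551, with a difference of 0.00. The brighter 2 probe sets of DLG3 differed by -0.16 and 0.07, against 1.95 for the one named above. For ZER1 the other probe sets gave -0.47 and 0.19 against -2.76. For RBM39 they gave -0.27 and 0.03 against 0.82. Of 45 genes named from the lists below, 14 had 19 other probe sets that were kept, of which 14 had the same direction and 4 also an unadjusted limma p under 0.05.

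The same was seen over all genes with a second probe set. Among 2181 genes with at least 2 probe sets kept, the brighter one was lower at an unadjusted p under 0.05 in 80 genes. The second was lower too in 56 of the 80, or 70%, against 51.2% of all 2181, and it was lower at an unadjusted p under 0.05 in 6.25% against 3.81%. For 15 genes with a higher brighter probe set the second was higher in 8. In 6 genes both reached an unadjusted p under 0.05 in the same direction. These were HNRNPL, a splicing regulator, JUND, a transcription factor of the AP-1 family, MAP2K5, a kinase of the ERK5 pathway, NACC1, a nuclear protein of neurons, and OAZ2, a regulator of polyamines, all lower, and INO80C, a subunit of a chromatin remodeller, which was higher by 0.74 and 0.94.

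HNRNPL and JUND were bright genes. The first probe set of HNRNPL gave 2021 and 1768 against 2553, 3073 and 3472 in the old animals, below all of them, with a difference of -0.68 (SE 0.25) that was -0.61 and -0.69 within the arrays with and without the poly-A control. The second gave 427 and 248 against 354, 581 and 827, so F1 was within the old range there. JUND gave 3686 and 1880 against 3117, 4993 and 6640, and F1 lay just above the lowest old animal. All 3 probe sets of JUND that were kept were lower by limma at an unadjusted p under 0.05, by -0.94, -0.96 and -1.16. In each of them F2 was the lowest of the 12 animals, and F1 lay within the old range.

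In gene lists, which were made from textbook pathways and chosen with earlier results of these data known, 1 probe set stood for each gene. Over all 7575 genes the median difference was -0.07, with 0.03 for F1 and -0.11 for F2, and 56.1% of the genes were lower. By limma at an unadjusted p under 0.05, 4.28% of the genes were lower and 0.884% higher, and both AD-like animals were below all old animals in 1.90% and above them in 1.11%. The counts of calls in each list below are to be set beside these shares. F2 was below F1 in the median of 28 of the 32 lists. Its median lay below that of every old animal in 11 lists, whereas that of F1 did so in 1. Many of these medians were smaller against old animals of the same set of arrays, which are given beside them. In 0 lists was an AD-like animal above every old animal.

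**Figure D3:**
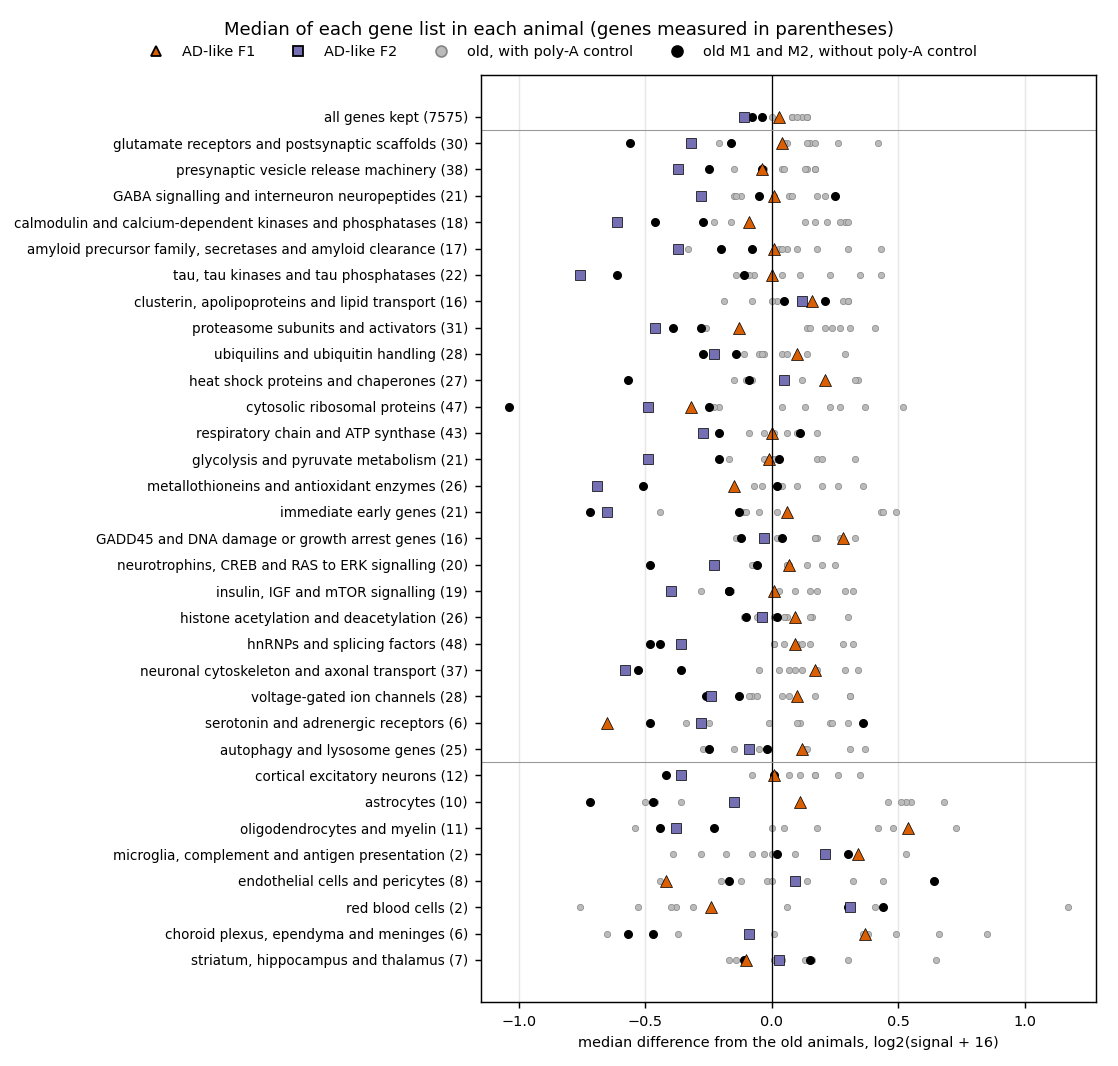
Median difference (horizontal axis, log2(signal + 16)) of each gene list in each animal, for AD-like animals from the mean of the 10 old animals and for each old animal from the mean of the other 9, with the number of genes measured in parentheses, pathways above and cell type markers below the lower grey line. AD-like F2 (squares) lies near or left of old M1 and M2 (black circles) in most lists, as in tau and its kinases at -0.76, while AD-like F1 (triangles) stays near 0 there but lies left of 0 for ribosomal proteins at -0.32.

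The 38 genes of presynaptic vesicle release had a median difference of -0.33, with -0.04 for F1 and -0.37 for F2, and 29 were lower. By limma at an unadjusted p under 0.05, 4 were lower, or 10.5%, and 0 were higher. NRXN2, a neurexin that joins the 2 sides of a synapse, gave 623 and 249 against 714, 1082 and 1677, below all old animals, with a difference of -1.43 (SE 0.38). SV2A, a protein of all synaptic vesicles, gave 1105 and 523 against 1120, 1298 and 1648, so F1 stood just under the lowest old animal and F2 far under it. PPFIA3, a liprin of the active zone, gave 479 and 210 against 460, 643 and 971, and on a second probe set its difference was -0.48 against -1.01. SNAP25, which drives vesicle fusion, gave 27065 in F1, close to the old median of 29780, and 8268 in F2, below the old minimum of 9876. The list had a median of -0.15 within the arrays with the poly-A control, -0.44 within those without and -0.14 after quantile normalization.

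Of 30 genes of glutamate receptors and their scaffolds 21 were lower, with medians of 0.04 for F1 and -0.32 for F2, and 2 were lower by limma at an unadjusted p under 0.05. The overall list median of -0.24 became -0.13 and -0.19 within the arrays with and without the poly-A control and -0.07 after quantile normalization. GRIN1, the subunit that every NMDA receptor needs, gave 457 and 58.6 against 235, 641 and 1547. Only F2 was below the old range, and the difference of -1.81 was -0.69 within the arrays with the poly-A control and -2.31 within those without. The other 4 probe sets of GRIN1 differed by -0.08 to -0.86. DLGAP3, a scaffold of the postsynaptic density, gave 372 and 270 against 359, 690 and 1484. The AMPA receptor subunit GRIA1 gave 123 and 140 against 114, 193 and 257, with both AD-like signals inside the old range and a difference of -0.46 (limma, 95% interval -1.15 to 0.23). On a probe set of GRIA1 that the filter left out, the signals were 122 and 205 against 9.31, 70.8 and 126, a difference of 1.13.

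Of 21 genes of GABA signalling and interneuron peptides 14 were lower and 7 higher, and GABRB2 alone reached an unadjusted limma p under 0.05. GABRB2, a subunit of the inhibitory GABA-A receptor, gave 11534 in F1 and 3917 in F2, against 777, 1544 and 5800. F1 lay above all old animals and F2 above 9 of 10. The difference was 1.95 (SE 0.65), and 2.84 and 0.72 within both sets of arrays. A second probe set of GABRB2 gave 848 and 520 against 218, 534 and 1357, a difference of 0.14. The median of the list was 0.01 for F1 and -0.28 for F2.

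Of 18 calcium signalling genes 2 were lower by limma at an unadjusted p under 0.05 and 0 higher. The 18 genes of calmodulin and calcium-dependent kinases and phosphatases had medians of -0.09 for F1 and -0.61 for F2, the latter below that of every old animal. For both animals together the list median was -0.38, and -0.24 and -0.19 within the arrays with and without the poly-A control and -0.11 after quantile normalization. CAMKK1, a kinase that switches on other calmodulin kinases, gave 264 and 185 against 325, 378 and 635, below all old animals in both cases. Its relative CAMKK2 gave 522 and 94.2 against 376, 717 and 1163, so F1 was inside the range. On a second probe set CAMKK2 gave 203 and 223 against 123, 211 and 497, inside it in both, with a difference of -0.04 against -1.52. CAMK2A, the abundant calmodulin kinase of excitatory synapses, gave 1456 and 925 against 546, 2497 and 4077. On a second probe set of CAMK2A the signals were 994 and 941 against 1223, 1543 and 1976, below all old animals, with a difference of -0.70 (unadjusted p = 0.022 in limma). PCP4, a small protein that binds calmodulin, was above all old animals in both, with 369 and 377 against 149, 227 and 359.

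The genes of the amyloid precursor and of tau lay on opposite sides of the old median in the 2 AD-like animals. APP, the precursor of amyloid, gave 14857 in F1 and 5415 in F2 against 6321, 12477 and 16991. MAPT, which encodes tau, gave 2468 and 981 against 1441, 2132 and 3319. For both genes F1 was above the old median and F2 was below all old animals. Of 17 genes of amyloid formation and clearance 11 were lower, with a median of 0.01 for F1 and -0.37 for F2. The median of the list, -0.29, was -0.07 and -0.10 within the arrays with and without the poly-A control and -0.07 after quantile normalization. The adaptor APBA1, which binds the tail of the precursor, was the only one of them lower by limma at an unadjusted p under 0.05, with 139 and 47.3 against 105, 168 and 215. The difference of -0.85 was -0.14 within the arrays with the poly-A control and -1.74 within those without.

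Of 22 genes of tau, its kinases and its phosphatases 17 were lower, with a median of 0.00 for F1 and -0.76 for F2, and 3 were so by limma at an unadjusted p under 0.05. The overall list median of -0.45 became -0.15 and -0.29 within the arrays with and without the poly-A control and -0.16 after quantile normalization. Among the kinases of tau, CDK5 gave 320 and 285 against 278, 567 and 768, so both AD-like animals were at the low end of the old range and below 9 of 10 old animals. Its difference of -0.76 (SE 0.33) was -0.70 and -0.74 within both sets of arrays. MARK4 gave 912 and 243 against 514, 1077 and 1526, and TTBK1 gave 394 and 141 against 213, 464 and 509, with F1 inside the old range for both. GSK3B gave 6108 and 4590 against 3646, 6046 and 10600, inside the range in both. On another probe set of GSK3B the signals were 873 and 456 against 940, 1340 and 1656, below all old animals, with a difference of -1.01 (unadjusted p = 0.00514 in limma), and on the remaining probe set kept the difference was -0.20.

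Lipid carriers were among the few groups that did not lie low. Of 16 genes of clusterin, apolipoproteins and lipid transport 13 were higher, with a median of 0.16 for F1 and 0.12 for F2, and 0 reached an unadjusted limma p under 0.05. The medians of 4 old animals were above both and those of 6 below both. APOE, the main lipid carrier of the brain and the strongest common risk gene of Alzheimer's disease, gave 411 and 445 against 165, 420 and 547. Clusterin, CLU, gave 217 and 76.9 against 31, 81 and 197, above the old range in F1 and near the old median in F2. Its difference of 0.47 was 1.16 within the arrays with the poly-A control and -0.31 within those without. Of the probe sets for CLU that were too dim to be kept, 1 gave 253 and 179 against 42.3, 84 and 130, above all old animals in both, with a difference of 1.22. Others gave 1.07 and -0.53.

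Cytosolic ribosomal proteins were low in both AD-like animals. Of 47 genes 40 were lower, or 85.1%, with medians of -0.32 for F1 and -0.49 for F2. The medians of 9 old animals were above both and that of old M1, at -1.04, was below both. By limma at an unadjusted p under 0.05 5 were lower, or 10.6%, and 0 higher. RPL37 gave 2310 and 4596 against 5285, 11219 and 17746, below all old animals, with a difference of -1.67 (SE 0.48). RPS21 gave 1742 and 1437 against 1882, 2574 and 3940, also below all. RPS16 gave 3184 and 2235 against 2486, 6466 and 9090, and F1 was then inside the old range. On its other probe sets RPS16 differed by -0.32 and -0.41, against -1.06. The median of the list was -0.51 within the arrays with the poly-A control, 0.04 within those without, and -0.06 after quantile normalization. RPL37 likewise differed by -2.36 within the former and by -0.39 within the latter.

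Of 21 genes of glycolysis and pyruvate metabolism 18 were lower, and 4, or 19.0%, were so by limma at an unadjusted p under 0.05. In all 4 both AD-like animals were below all old animals, while the median of the list was -0.01 for F1 and -0.49 for F2. The median over both, -0.29, was -0.10 and -0.39 within the arrays with and without the poly-A control and -0.32 after quantile normalization. TPI1, triosephosphate isomerase, gave 624 and 452 against 666, 969 and 1373, and PGAM1, phosphoglycerate mutase, gave 272 and 366 against 413, 501 and 865. PKM, pyruvate kinase, gave 19 and 52.5 against 77.4, 141 and 403. On a probe set that the filter left out, PKM gave a difference of 1.1 against -1.81. ENO3 was given above. A second probe set of TPI1 gave a difference of 0.10 against -0.87.

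Of 43 respiratory chain genes 28 were lower, with medians of 0.00 for F1 and -0.27 for F2. By limma at an unadjusted p under 0.05 4 were lower. The list had been drawn up with ATP synthase genes too, but their symbols matched no probe set with a single symbol. It therefore says nothing of ATP synthase. For both animals together the list median was -0.18, and -0.03 and -0.34 within the arrays with and without the poly-A control and -0.04 after quantile normalization. UQCRC1, a core protein of complex III, gave 1114 and 637 against 1133, 1619 and 2863, below all old animals, and F1 only just so. COX6B1, of complex IV, gave 183 and 44.6 against 115, 248 and 527. UQCR10, a small subunit of complex III, gave 37.7 and 63.3 against 59.1, 134 and 195.

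Of 31 proteasome subunits and activators 22 were lower, with a median of -0.13 for F1 and -0.46 for F2. The median of the list, -0.41, was -0.30 and -0.07 within the arrays with and without the poly-A control and -0.19 after quantile normalization. PSMB7, a catalytic subunit, gave 2339 and 729 against 956, 5459 and 7016, and 2 old animals were lower than F1 too. PSMB9, a subunit of the immunoproteasome, gave 44.9 and 85.6 against 94.9, 137 and 210, below all old animals. PSMC2, an ATPase of the cap, gave 546 and 453 against 189, 366 and 452, above all of them, so subunits lay outside the old range on both sides. Ubiquilin 1, UBQLN1, gave 948 and 983 against 493, 748 and 1704 on its brightest probe set, and its difference turned from 0.24 to -0.71 within the arrays without the poly-A control. On a second probe set UBQLN1 gave 756 and 612 against 108, 379 and 455, above all old animals in both, with a difference of 1.11 (unadjusted p = 0.0376 in limma). On the remaining one kept it gave 870 and 1047 against 315, 579 and 1027, a difference of 0.69. Of 28 genes that handle ubiquitin 0 reached an unadjusted limma p under 0.05, and their median was 0.10 for F1 and -0.23 for F2.

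Of 27 heat shock proteins and chaperones 16 were higher, and the median was 0.21 for F1 and 0.05 for F2. HSPA4, a chaperone of the Hsp110 class, gave 277 and 310 against 93.9, 140 and 271, above all old animals, and its second probe set gave a difference of 0.00. Of 26 metallothioneins and antioxidant enzymes 19 were lower, with a median of -0.15 for F1 and -0.69 for F2, and 0 reached an unadjusted limma p under 0.05. The list median of -0.41 over both animals became -0.27 and -0.26 within the arrays with and without the poly-A control and -0.23 after quantile normalization. MT1X, a metallothionein that binds zinc and copper, gave 6854 and 2030 against 1504, 11930 and 20777, so the old animals alone spanned a wide range.

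Immediate early genes, which neurons switch on when they fire, varied widely among the old animals. Of 21 genes 15 were lower, with a median of 0.06 for F1 and -0.65 for F2, and the medians of the old animals ran from -0.72 to 0.49. For both animals together the list median was -0.33, and -0.16 and -0.20 within the arrays with and without the poly-A control and -0.21 after quantile normalization. FOS gave 594 in F1 and 55.4 in F2 against 191, 610 and 1705, and DUSP1, a phosphatase induced with FOS, gave 211 and 31.7 against 130, 259 and 409. On these probe sets F1 was near the old median and F2 below all. A second probe set of DUSP1 gave 12.6 in F1 and 227 in F2 against 11.4, 122 and 372, so there F1 was the low animal. In the path from RAS to ERK and CREB, HRAS gave 139 and 28.5 against 92.9, 181 and 255, ARAF gave 123 and 42.9 against 68.3, 231 and 359, and the CREB coactivator CRTC2 gave 241 and 21.9 against 133, 388 and 622. CREB1 itself gave 555 and 550 against 243, 303 and 587, above 9 of 10 old animals, while its other probe sets differed by -0.29, 0.24 and 0.50. Of the 20 genes of this group 10 were lower and 10 higher.

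Genes that place or remove acetyl groups on histones showed little shift as a group, with a median of 0.09 for F1 and -0.04 for F2 over 26 genes, and 12 lower. HAT1 and KAT2B were higher by limma at an unadjusted p under 0.05, 7.69% of the list, and both lay above the old range. KAT2B, a coactivator that acetylates histone H3, gave 575 and 351 against 196, 275 and 338, and F2 was only just above the highest old animal. Its difference was 0.72 (SE 0.28), and 1.05 and 0.39 within both sets of arrays. KAT5, the catalytic subunit of the NuA4 complex, gave 298 and 31.3 against 58.2, 341 and 640. The zinc finger gene ZBTB11 gave 478 and 473 against 219, 284 and 394, above all old animals, with 0.67 and 0.79 within both sets of arrays. NAP1L1, a histone chaperone, gave 4079 and 3648 against 2382, 4172 and 5293, inside the old range in both, with a difference of -0.04 (limma, 95% interval -0.69 to 0.60). Other probe sets of NAP1L1 that were kept differed by 0.23 and 0.11. Of those too dim to be kept, 1 gave 207 and 221 against 47, 96.6 and 137, above all old animals in both, with a difference of 1.15.

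Of 48 hnRNPs and splicing factors 32 were lower, with a median of 0.09 for F1 and -0.36 for F2. HNRNPL and HNRNPR were lower by limma at an unadjusted p under 0.05, a share close to the 4.28% of all genes. HNRNPR gave 1706 and 620 against 1421, 2388 and 3394, and -0.28 against -1.05 on its second probe set. The median of the list, -0.14, was -0.05 and 0.01 within the arrays with and without the poly-A control and 0.07 after quantile normalization. Among 28 voltage-gated ion channels 4 were lower, or 14.3%, at an unadjusted p under 0.05. KCNC1, the fast potassium channel Kv3.1, gave 616 and 236 against 465, 933 and 1233, and CACNA2D1, a calcium channel subunit, gave 224 and 128 against 210, 359 and 707. F1 was inside the old range for both and F2 below it. KCNAB2, a potassium channel subunit, gave 29 and 20.8 against 46, 109 and 331. On second probe sets the differences were 0.13 against -1.17 for KCNC1 and 0.16 against -1.73 for KCNAB2, with both AD-like animals inside the old range. The median of the channel list, -0.19, was 0.06 and -0.41 within the arrays with and without the poly-A control and -0.11 after quantile normalization. The cytoskeleton and axonal transport list had 37 genes with a median of 0.17 for F1 and -0.58 for F2. The median over both, -0.24, was 0.05 and -0.10 within the arrays with and without the poly-A control and 0.07 after quantile normalization. Its single gene with an unadjusted p under 0.05, the dynactin subunit DCTN1, gave 1102 and 495 against 941, 1174 and 1542.

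Only 6 of 23 serotonin and adrenergic receptors passed the filter. Their median was -0.65 for F1, below that of every old animal, and -0.28 for F2. For both animals together it was -0.57, and -0.59 after quantile normalization. Beside HTR4, the beta-1 adrenergic receptor ADRB1 gave 352 and 242 against 411, 525 and 682, below all old animals, with a difference of -0.81 (SE 0.29) that was -0.61 and -0.86 within both sets of arrays. In contrast HTR2A, the serotonin receptor 2A, gave 260 and 211 against 93.2, 188 and 257. Of 19 genes of insulin, IGF and mTOR signalling 1 was lower by limma at an unadjusted p under 0.05, FOXO1, a transcription factor that insulin keeps out of the nucleus, with 129 and 122 against 161, 197 and 296. Of 25 genes of autophagy and lysosomes 1 was lower by limma at an unadjusted p under 0.05, a share close to the 4.28% of all genes. It was ATG7, an enzyme that starts autophagosomes, with 347 and 223 against 259, 625 and 972. Of the ATG7 probe sets that the filter left out, 1 gave 140 and 109 against 18.4, 59 and 107, a difference of 0.94. Others gave -0.68 and -0.53.

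**Figure D4:**
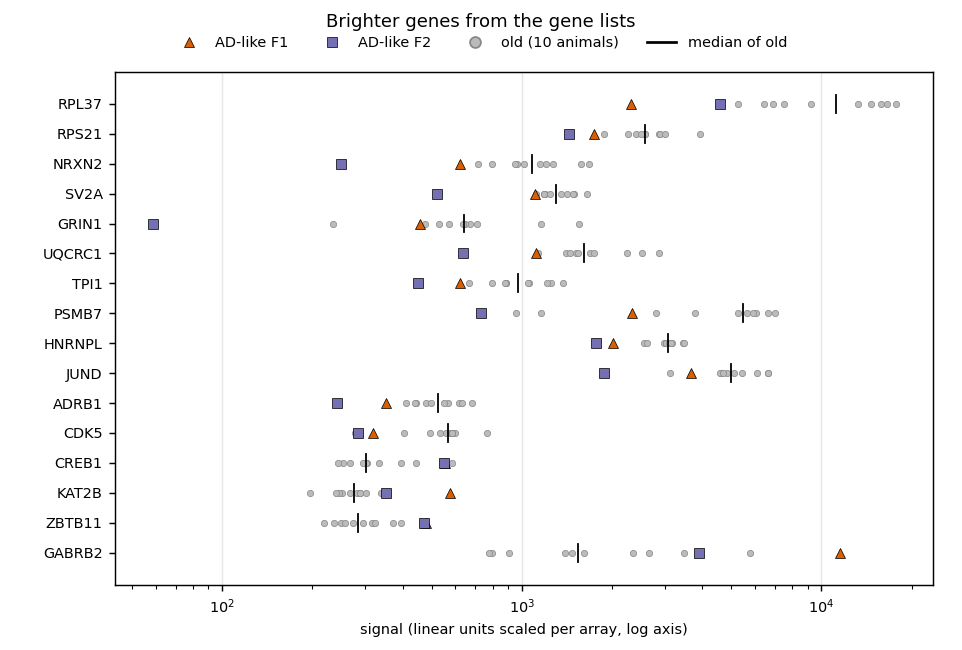
Signals (horizontal log axis, linear units scaled per array) of 16 brighter named genes, with old animals as grey circles, their median as a black line, AD-like F1 as a triangle and AD-like F2 as a square. For HNRNPL, RPL37 and ADRB1 both AD-like animals lie below the old range and for ZBTB11 and KAT2B above it, whereas for GRIN1 F2 lies at 58.6 and F1 at 457 among the old animals.

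The 12 measured markers of cortical excitatory neurons had a median of 0.01 for F1 and -0.36 for F2, 10 astrocyte markers 0.11 and -0.15, and 11 oligodendrocyte and myelin markers 0.54 and -0.38. In these 3 lists 0 genes reached an unadjusted limma p under 0.05. The astrocyte water channel AQP4 gave 3071 and 2959 against 555, 1771 and 4808. Among 8 markers of vessels FN1, which encodes the matrix protein fibronectin, was lower at an unadjusted p under 0.05, with 42 in F1 and 113 in F2 against 96.3, 302 and 385. A second probe set of FN1 gave 150 and 105 against 28.3, 120 and 167, a difference of 0.12 against -1.61. The sum of 20 vessel markers was 1538 in F1 and 2483 in F2 against 1964 to 2823, so F1 was below the old range. The sum of 21 microglial, complement and antigen presentation genes was 1892 and 1300 against 1111 to 1686, and F1 was above it, but only FCER1G and ITGAM were bright enough to be kept, with medians of 0.34 for F1 and 0.21 for F2 over these 2 genes.

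Within the 2 sets of arrays the named genes differed in how far each AD-like animal carried them. Of the 74 named genes 70 had the same direction in both comparisons, which their choice favours. For the 25 genes named for lying outside the old range, with GADD45G among them, the shared direction was fixed by that choice. Their differences were at least 0.62 in size in both sets. Among genes named from the lists, HRAS differed by -0.21 and -2.29, SV2A by -0.25 and -1.32 and MARK4 by -0.25 and -1.25 within the arrays with and without the control. On these probe sets the difference of F2 was thus the larger. On the probe sets named, RPL37, FN1 and GABRB2 differed more in F1, with -2.36 and -0.39, -2.27 and -0.69, and 2.84 and 0.72. The part of the arrays themselves in these values was not tested.

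**Figure D5:**
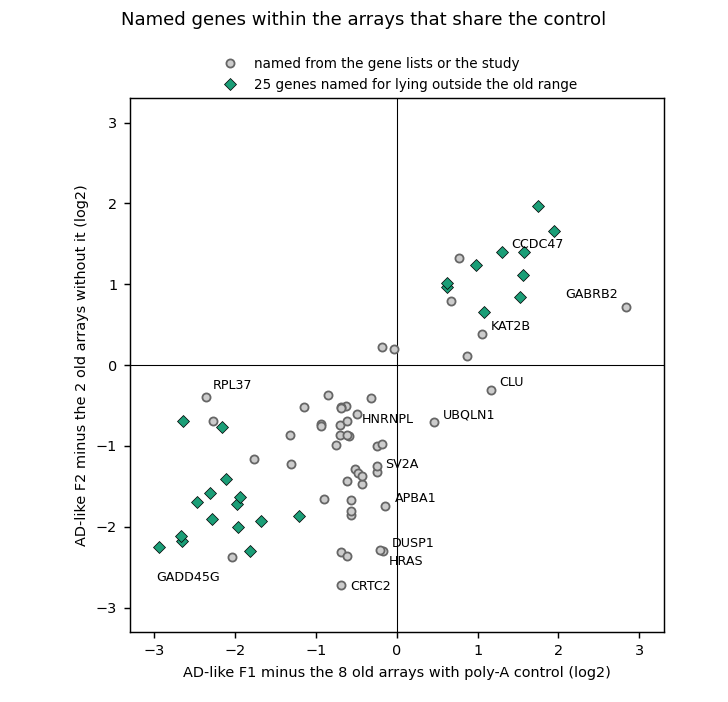
Differences (log2(signal + 16)) of the 74 named genes, as AD-like F1 minus the mean of the 8 old animals on arrays with the poly-A control (horizontal axis) and AD-like F2 minus the mean of the 2 old animals on arrays without it (vertical axis), with the 25 genes named for lying outside the old range as green diamonds and those named from lists or the study as grey circles. The diamonds share a direction in both comparisons by their choice, as GADD45G at -2.66 and -2.18, while HRAS and SV2A lie near the vertical axis at -0.21 and -0.25.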

How the data were processed

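Total RNA of temporal cortex was hybridized to human arrays, 1 per animal. The deposited values are linear signal intensities that the authors computed with GCOS 1.2, each array being scaled to a trimmed mean of about 100. Array medians ran from 30.7 to 53, and the number of arrays limits the precision. Groups followed the sample titles. Probe sets whose third-highest signal over the 12 arrays was at least 150 were kept, signals were turned into log2(signal + 16), and AD-like minus old was fitted in limma 3.58.1 (R 4.3.3) with Benjamini-Hochberg adjustment over 12427 probe sets at a threshold of 0.05. Names came from the platform annotation deposited with GEO, in which 10677 of the kept probe sets had 1 symbol, 522 several and 1228 none. In lists a gene was represented by its brightest kept probe set (highest mean over the 12 arrays). The fit was tested on simulated data.

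Named genes were those past the adjusted threshold, the 15 lower and 10 higher genes of smallest p with both AD-like signals outside the old range, up to 3 genes per list with an unadjusted p under 0.05, and genes the study discusses. Further genes, such as APP and MAPT, were named for their role after their values were seen. The members and lists were chosen with earlier results of these data known. Alternatives changed the offset, normalization, filter, variance model, covariates, block, test and arrays. Nothing in the sources used here states whether the arrays without poly-A control RNA were prepared apart from the others.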

Additional observations from a re-analysis of the deposited data

Results flagged for a closer look

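In 8 of the 74 named genes and 32 lists examined, 1 old animal lay far from the other 9. The measure is the gap to the nearest animal as a share of the whole old range and was set against Dixon's critical value for 10 animals, which chance alone passes in about 1 of 20 groups.

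Old M3 was lowest for RBM39, with a signal of 108 against 161 for the next animal (0.547), for JUND, with 3117 against 4596 (0.513), and for ARAF, with 68.3 against 155 (0.474). Old M2 was lowest for TTBK1, with 213 against 403 (0.729), and for the median of the neurotrophin, CREB and RAS to ERK list, with -0.48 against -0.08 (0.548). Old M1 was lowest for NAP1L1, with 2382 against 3487 (0.477), for the median of ribosomal proteins, with -1.04 against -0.25 (0.506), and for that of metallothioneins and antioxidant enzymes, with -0.51 against -0.07 (0.506). In all 8 the animal was a male on the low side, and old M1 and M2 are the old animals whose arrays carried no poly-A control. Sex and the set of arrays cannot be told apart for those 2 animals.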

How the results depend on the processing

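Among differences of named genes, 2211 values under the alternatives kept direction and side of the threshold, 11 came to pass adjustment, 15 ceased to and 12 reversed. Of the list medians 956 stayed within the spread of the old animals and 66 did not. The causes were not tested. Probe sets lower and higher at an unadjusted p under 0.05 (limma, 497 and 119) numbered 1055 and 2328 without a filter, 268 and 40 with a minimum of 300, 1221 and 477 against females only, 1052 and 386 with sex as covariate, 830 and 284 on arrays without the poly-A control, and 288 and 317 in the methods' t-test. The old females were all on arrays with the poly-A control, unlike AD-like F2. Quantile normalization gave 198 higher. Those past adjustment (1) numbered 5 with an offset of 1, 11 against females, 4 with sex as covariate, and 0 with an offset of 50, no filter, a minimum of 300, the GAPDH ratio as covariate, either set of arrays alone, the replicate block and the t-test. Probe sets with both AD-like signals below and above all old ones (212 and 152) numbered 548 and 1306 without a filter, 107 and 48 with a minimum of 300, 925 and 550 against females, 1468 and 1180 on arrays with the control and 4807 and 4073 on those without, where fewer old animals bound the range. Leaving out 1 animal gave 427 to 955 lower, 43 to 201 higher, 0 to 9 past adjustment, 225 to 1848 below and 161 to 1168 above, the highest values of the last 2 being reached with 1 AD-like animal left. GADD45G missed the adjusted threshold at -1.87 with an offset of 50, -2.63 without a filter and with the GAPDH ratio, -2.66 and -2.18 on arrays with and without the control, -2.68 with the replicate block and -3.45 in the t-test, and ranged from -2.73 to -2.52 on leaving out 1 animal. A minimum of 300 left it out. GSK3B reversed to 0.14 after quantile normalization and 0.22 on arrays without the control. NAP1L1 reversed to 0.28, with the actin ratio to 0.03, with the poly-A block to 0.06 and on arrays without the control to 0.20, and ranged from -0.12 to 0.04 on leaving out 1 animal. UBQLN1 reversed to -0.04 with the poly-A block and -0.71 on arrays without the control. CLU reversed to -0.31 there and ranged from -0.20 to 1.13 on leaving out 1 animal.

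The replicate numbers only name animals and give no pairing, and the deviations of same-numbered animals had correlations of 0.30 for F1 and -0.26 for F2. With the replicate block there were 852 lower and 622 higher probe sets. With 2 AD-like animals, a difference that was not called may still exist. Where leaving out an AD-like animal leaves 1, it is assumed to vary like the old animals.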

Other observations

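Among the genes in which 2 probe sets had differences of the same direction with an unadjusted limma p under 0.05, and which were singled out after their values were seen, OAZ2 gave 141 in F1 and 198 in F2 against 212, 398 and 489 as the lowest, median and highest old signals on one probe set, and 1352 and 846 against 1100, 1903 and 2566 on the other. NACC1 gave 191 and 248 against 271, 410 and 566, and on its second probe set 8.95 and 98 against 43.1, 170 and 195. MAP2K5 gave 319 and 154 against 304, 559 and 846. Both AD-like animals lay below all old animals on the first probe sets of OAZ2 and NACC1, and F1 was inside the old range for MAP2K5.

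The summed signals of markers of tissue next to the cortex lay within the old range in both AD-like animals, though single members did not. The sum of 14 genes of choroid plexus, ependyma and meninges was 6791 in F1 and 5496 in F2 against 2624 to 22676, and that of 10 genes of striatum, hippocampus and thalamus was 6157 and 5670 against 3600 to 15821. The sum of 6 red blood cell genes was 706 and 954 against 624 to 1297. Of the members kept, SLC13A4 gave 248 in F1 against at most 205 in the old animals and PROX1 gave 187 in F1 against at least 298. In F2, IGFBP2 gave 204 against at least 283, COL1A1 gave 49.1 against at least 51.9 and DRD2 gave 41.1 against at least 60.7.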
